A study of Bos taurus with 68 samples.

Results

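Liver RNA taken on day 49 of lactation was compared with liver RNA taken on day 28 from the same 4 cows, numbered 6934, 7079, 7186 and 7188. The comparison holds every array of these cows on these days in the larger of 2 deposited value tables, which is 16 of the 68 arrays of the series. Of these, 8 arrays belong to day 49 and 8 arrays to day 28. They make up 8 cow-days, because each sample was hybridised on a pair of 2-colour cDNA arrays with the dyes exchanged, each time against a reference standard RNA. The series followed liver expression in cows across the dry period, calving and early lactation. No treatment is named for either day, and nothing is said of breed, parity, age or diet in the sources read. The reference standard RNA is shared by both days, and its composition is not stated in the sources read.

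The liver of a lactating cow makes most of the glucose that the udder turns into milk lactose, because little glucose is absorbed from the rumen. In the first weeks of lactation feed intake lags behind milk energy, body fat is mobilised, and the liver takes up the released fatty acids and oxidises them, makes ketone bodies from them or stores them as triglyceride. Hepatocytes also secrete complement, coagulation factors, transferrin and other plasma proteins, and they detoxify ammonia and foreign compounds. The comparison asks which of these functions differ between the later and the earlier lactation day.

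No gene passed the test. Of 5544 tested clones, 0 had a Benjamini-Hochberg adjusted p under 0.05 in limma's paired fit (0% called), and the smallest adjusted p was 0.752. At an unadjusted p under 0.05 there were 322 clones, 5.81% of those tested, where a threshold of 0.05 gives 277 with no difference at all. Of these, 155 were higher on day 49 (2.8%) and 167 were lower on day 49 (3.01%). Without cow 7079 the unadjusted count was 195, and without cow 7188 it was 744, and 0 clones passed after adjustment in either case. Without centring the arrays, 81 of 332 clones at that threshold were higher on day 49, and with arrays scaled to 1 median absolute deviation 113 of 341 were, against 155 of 322. Only a fit without cows 6934 and 7188, whose exchanged arrays disagreed most, gave adjusted calls, 73 in number from 2 cows with 1 residual degree of freedom. That fit gave every clone the same variance (0.173), so its calls depend on the size of the difference and not on a clone's own spread. The values below therefore describe 4 cows and name no gene as changed. The lists of complement, fatty acid oxidation, gluconeogenesis, acute phase and ribosomal protein genes had the lowest median log2 differences, at -0.51, -0.41, -0.40, -0.37 and -0.37, and 0 of their members passed. These medians did not hold throughout: cow 7186 had the opposite sign for complement (0.22), fatty acid oxidation (0.27) and acute phase genes (0.68), and the ribosomal median was 0.02 on arrays with liver in Cy5 and -0.15 without cow 7079.

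Values are log2 ratios of liver over reference, so that a difference of 1 between the days is a 2-fold difference. Rows measured on an array numbered 15192 to 16216 of 16416, and array medians lay between -0.82 and 0.64 before each array was centred. The numerator of the deposited ratio is not given, so liver over reference is a likely direction, taken from tissue genes. After the arrays with liver in Cy3 were turned, the means of all 8 hepatocyte-enriched genes measured lay above the array median, on which each array was centred. They ran from 0.15 for the apolipoprotein APOA1 to 4.54 for the copper carrier CP. Among genes of other tissues the 2 clones of VIM, an intermediate filament gene of connective tissue, averaged -4.01 and -4.02. MGP, with 0.98, 1 of the 3 clones of MBP, with 1.26, and 1 clone of DES, with 0.02, lay above the array median. If the ratio ran the other way, every sign below would turn, that of the day differences included. In bulk liver, fewer cells of a type and less RNA per cell cannot be told apart.

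The precision of the day differences was low, and the pairs of exchanged arrays show how low. Before turning, the exchanged pair should correlate below 0 across rows, which it did in 6 of 8 cow-days. The exceptions were day 49 of cow 6934 (r = 0.0541) and day 49 of cow 7188 (r = 0.176). Day 28 of cow 6934 (r = -0.00257) and day 49 of cow 7079 (r = -0.00478) were below 0 by so little that their pairs did not agree either. Within a cow, the day difference on arrays with liver in Cy5 and the day difference on arrays with liver in Cy3 correlated across clones at -0.03 to 0.05. These correlations are across clones, which are not independent replicates. Averaged over the 4 cows, the orientations correlated at -0.04 over the 5544 clones. The difference between the orientations, divided by 2, had an SD of 0.589 to 0.662 over clones, and the mean of the orientations an SD of 0.572 to 0.664. The disagreement between the dyes was thus as wide as the day difference itself.

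**Figure D1:**
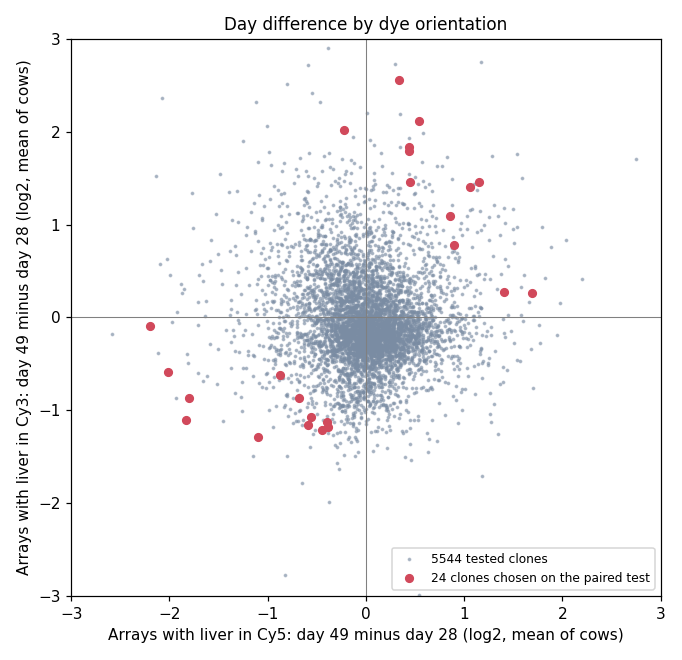
Day difference (day 49 minus day 28, log2, mean over cows) of each of the 5544 tested clones on arrays with liver in Cy5 (horizontal axis) and on arrays with liver in Cy3 (vertical axis). The 24 clones with the smallest unadjusted p among those of 1 direction in 4 cows are marked in red. The cloud of points has no slope (r = -0.04), and the marked clones lie away from its centre because they were chosen on the mean of both axes.

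Between cows, the day differences correlated across clones at 0.21 for cows 6934 and 7079, at 0.23 for cows 6934 and 7186 and at 0.17 for cows 7079 and 7186. Cow 7188 stood apart, with correlations of -0.16 to cow 6934, 0.03 to cow 7079 and -0.18 to cow 7186. The spread of ratios also differed between cow-days. On the mean profile of all cow-days, the slope of day 49 was 0.864, 0.826, 1.21 and 0.598 in cows 6934, 7079, 7186 and 7188, against 1.00, 0.924, 0.953 and 0.883 on day 28. Cow 7186 thus had the wider ratios on day 49 and the other 3 cows the narrower ones. A change of scale moves the values of genes far from the array median most. The plasma protein and fatty acid oxidation lists are therefore also given after each cow-day was rescaled by its slope. The same is given for the gluconeogenesis list, although its median ratios, 0.02 on day 49 and 0.29 on day 28, lay near the array median. Over the 23 lists with at least 5 tested genes, rescaling turned the sign of 1 median, that of the cell cycle genes. Over all tested clones, 44.4% had a higher and 55.6% a lower estimate on day 49, the median difference was -0.03, and a 95% interval reached 0.562 to either side at the median. Without centring the arrays, the median of all clones was -0.17. List medians by dye orientation are given throughout without the median of all clones on the same arrays. A shift common to all clones on an orientation is therefore not taken out of them.

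Complement is a cascade of plasma proteases that marks microbes for killing, and most of its proteins are made by hepatocytes. Of 12 complement and coagulation genes tested, 0 passed after adjustment, 11 had a lower and 1 a higher estimate on day 49, and the list's median difference was -0.51, beside -0.03 over all clones. The number lower at an unadjusted p under 0.05 was 5 of 12, against 3.01% of all clones. Values lower in 4 of 4 cows were found for 3 of them, against 7.68% of all clones. The cows' own medians were -0.74, -0.999, 0.22 and -0.95 in cows 6934, 7079, 7186 and 7188. Cow 7186 therefore went the other way. After rescaling by the slope the median was -0.49, on the Cy5 arrays alone -0.84, and on the Cy3 arrays alone -0.27. Without cow 7186 it was -0.80, and without cow 7188 -0.45.

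C1S, the protease subunit of the first complement component, had log2 ratios of 0.80, 1.37, 2.31 and 0.30 in cows 6934, 7079, 7186 and 7188 on day 49. On day 28 the same cows, in the same order here and below, had 2.25, 2.65, 2.82 and 2.27. Each cow was lower on day 49, while the value of cow 7186 on day 49 lay inside the day 28 range. The mean was 1.20 ± 0.86 on day 49 and 2.50 ± 0.28 on day 28 (SD, n = 4 cows each), a difference of -1.30 ± 0.64 (the second number is the reach of the 95% interval to either side, here and below; limma adjusted p = 0.752). The C1S difference was -2.01 on Cy5 arrays alone and -0.59 on Cy3 arrays alone, and 1 of 4 cows was lower on both orientations. C2, the protease that forms the classical C3 convertase, measured 2.01, 2.15, 3.16 and 1.56 on day 49, against 3.98, 3.53, 3.07 and 2.77 on day 28. It was lower in 3 cows and about level in cow 7186, with a difference of -1.11 ± 0.82 (limma adjusted p = 0.752).

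SERPING1, the inhibitor of C1S, measured 0.30, 0.28, 0.94 and 0.17 on day 49, against 1.21, 1.39, 1.24 and 0.83 on day 28. CD59, a membrane protein that blocks the final attack complex, measured 2.25, 2.17, 2.93 and 1.77 on day 49, against 2.96, 3.34, 3.45 and 2.47 on day 28. Both the inhibitors and the proteases were lower on day 49 in each of these cows other than C2 in cow 7186, and the ranges of the days overlapped. The differences were -0.75 ± 0.50 for SERPING1 and -0.78 ± 0.46 for CD59 (limma adjusted p = 0.752 for both). C1R, the partner protease of C1S, did not follow, with a difference of 0.02. The C1q chains, which Kupffer cells rather than hepatocytes are known to make, had estimates of -0.44 for C1QA, -0.38 for C1QB and -0.85 for C1QC.

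**Figure D2:**
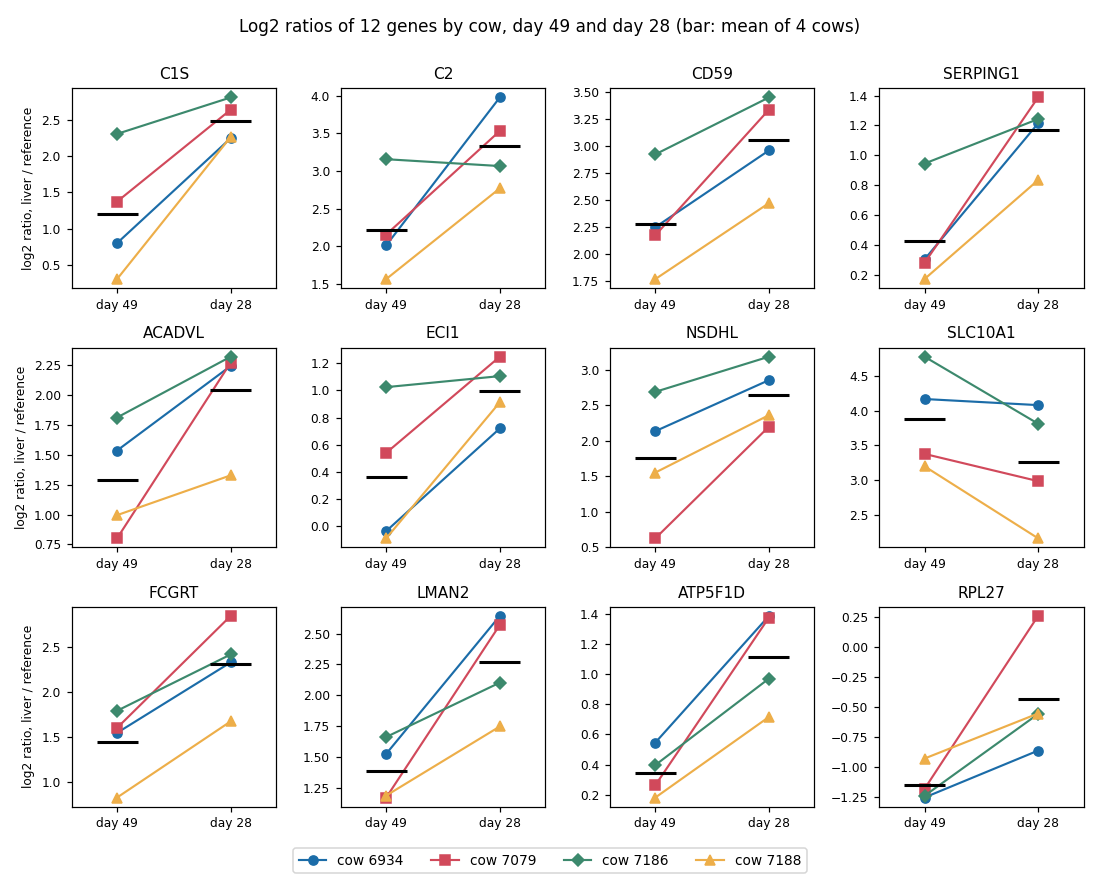
Log2 ratios of liver over reference for 12 genes on day 49 (left of each panel) and day 28 (right), with 1 line and symbol per cow and a black bar at the mean of 4 cows. For C1S, CD59, SERPING1, ACADVL, ECI1, NSDHL, FCGRT, LMAN2, ATP5F1D and RPL27 every cow's line is lower on day 49, SLC10A1 is higher on day 49 in all 4 cows, and C2 splits 3 to 1.

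Among acute phase and plasma carrier proteins, 6 genes were tested, 0 passed, and 5 had lower estimates on day 49 (median -0.37). The cows' medians were -0.53, -0.52, 0.68 and -0.92, so cow 7186 again had the opposite sign. After rescaling by the slope the median was -0.21. TF, the iron carrier of plasma, measured 3.52, 2.75, 4.36 and 2.94 on day 49, against 4.34, 4.21, 4.33 and 3.44 on day 28. It was lower in 3 cows and level in cow 7186, and its difference was -0.69 ± 0.66 (limma adjusted p = 0.801). CP had a difference of 0.47 ± 1.14, an interval that spans 0, and of -0.11 on Cy5 arrays alone. The acute phase genes HP and SAA3 were not analysed here.

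Fatty acids enter liver mitochondria as carnitine esters and are then shortened step by step by the enzymes of beta-oxidation. Of 18 genes of fatty acid uptake, oxidation and ketogenesis, 0 passed, 15 had lower and 3 higher estimates on day 49, and the median was -0.41. At an unadjusted p under 0.05, 4 were lower, against 3.01% of all clones, and 6 were lower in 4 of 4 cows, against 7.68%. The cows' medians were -0.71, -0.63, 0.27 and -0.33, with cow 7186 once more of the opposite sign. The list's median was -0.35 after rescaling, -0.58 on Cy5 arrays alone, -0.21 on Cy3 arrays alone -0.60 without cow 7186 and -0.41 without cow 7188.

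CPT1A, which commits fatty acids to mitochondrial import, measured 1.68, 1.12, 1.95 and 1.30 on day 49, against 2.80, 1.97, 2.36 and 0.90 on day 28. Cow 7188 was higher on day 49 and the other 3 cows lower, for a difference of -0.50 ± 0.68 (limma adjusted p = 0.842), and a second CPT1A clone gave 0.03. ACADVL, the dehydrogenase that opens beta-oxidation of long chains, measured 1.54, 0.80, 1.81 and 1.00 on day 49, against 2.24, 2.27, 2.32 and 1.33 on day 28. All 4 cows were lower on day 49 with overlapping ranges, and the difference was -0.75 ± 0.58 (limma adjusted p = 0.752). ECI1 and ECI2, isomerases for unsaturated chains, were also lower in 4 of 4 cows, with differences of -0.64 ± 0.52 and -0.78 ± 0.60. Both dye orientations were lower in only 1 of 4 cows for ECI1 and in 2 for ECI2. A second ECI2 clone gave a difference of 0.52, with the opposite sign. HSD17B10, a mitochondrial dehydrogenase of branched and short chains, measured 2.66, 2.84, 3.64 and 1.86 on day 49, against 4.05, 3.98, 3.39 and 3.34 on day 28. It was lower in 3 cows and higher in cow 7186. ACSL1, which activates fatty acids to their CoA esters, differed by -0.24 ± 0.91, and its cow 7186 stood at 2.93 on day 49 against 1.69 on day 28. It was -1.01 on Cy5 arrays alone and turned to 0.53 on Cy3 arrays alone. CPT2, ACSL6 and ACAA1 were the members with higher estimates. The largest of these was 1.04, wider than the lowest estimate of the list, -0.94. In the list 1 member was higher in 4 of 4 cows, against 5.76% of all clones.

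**Figure D3:**
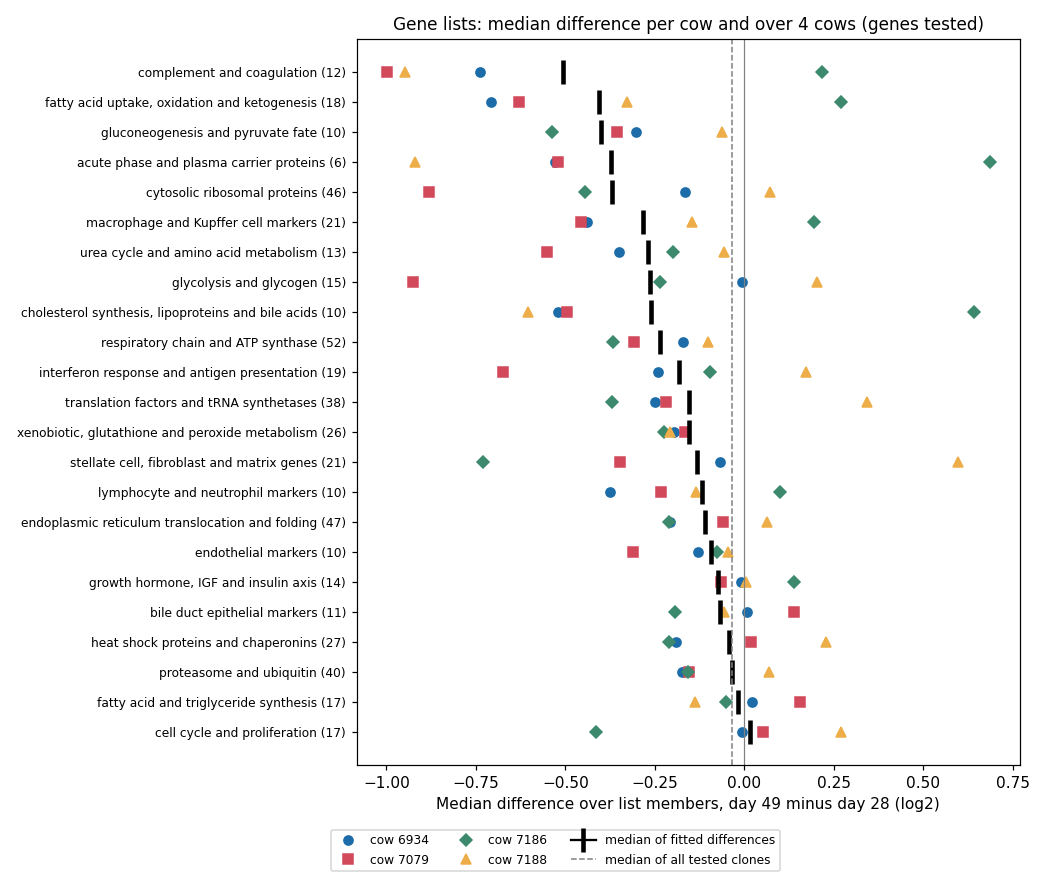
Median day difference (day 49 minus day 28, log2) of the members of each gene list, for each cow (coloured symbols) and from the fit over 4 cows (black bar). The number of tested genes stands in brackets, and the dashed line marks the median of all tested clones at -0.03. The complement list lies lowest at -0.51. Cow 7186 sits right of 0 for complement, fatty acid oxidation, acute phase, cholesterol, growth hormone, macrophage, and lymphocyte and neutrophil genes.

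Gluconeogenesis in ruminants starts mainly from propionate, lactate and amino acids, which enter through pyruvate carboxylase, the methylmalonyl pathway and aminotransferases. All 10 tested genes of gluconeogenesis and pyruvate fate had lower estimates on day 49 (median -0.40), and 0 of them passed. None reached an unadjusted p under 0.05 either, and 4 were lower in 4 of 4 cows, against 7.68% of all clones. The medians were of 1 sign in the 4 cows, at -0.30, -0.36, -0.54 and -0.06. They were -0.44 after rescaling, -0.26 on Cy5 arrays alone and -0.24 on Cy3 arrays alone.

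PC, pyruvate carboxylase, measured -0.21, -0.85, -0.43 and -0.23 on day 49, against 0.32, 0.61, 0.17 and -0.82 on day 28. Cow 7188 went the other way from the other 3 cows, and the difference was -0.50 ± 0.80 (limma adjusted p = 0.86). PDK4, a kinase that shuts pyruvate dehydrogenase during fat oxidation, measured 1.08, 0.20, 0.93 and 0.22 on day 49, against 1.45, 0.49, 1.71 and 0.34 on day 28. It was lower in each cow, with a mean difference of -0.39 ± 0.47 (limma adjusted p = 0.807). The difference was -1.02 on Cy5 arrays alone and turned to 0.25 on Cy3 arrays alone. MCEE, the epimerase of the propionate route, measured -0.06, 0.38, 0.44 and 0.07 on day 49, against 0.63, 0.58, 0.66 and 0.60 on day 28. Its days did not overlap, which held for 1.84% of all clones in the lower direction, yet its difference of -0.41 ± 0.45 spans 0. Only 1 of 4 cows was lower in MCEE on both dye orientations. GOT2, the mitochondrial aspartate aminotransferase, averaged 0.17 ± 0.22 on day 49 and 0.59 ± 0.07 on day 28 (SD, n = 4 cows each), also without overlap. PDHB, a subunit of pyruvate dehydrogenase, differed by -0.66 ± 0.79. PCK1 and PCK2, the phosphoenolpyruvate carboxykinases, were not analysed here.

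Fatty acid and triglyceride synthesis showed no common direction. Of 17 genes, 8 had higher and 9 lower estimates on day 49, the median was -0.02, and 0 reached an unadjusted p under 0.05. Among 10 genes of cholesterol synthesis, lipoproteins and bile acids, 4 were higher and 6 lower (median -0.26), and the cows' medians were -0.52, -0.49, 0.64 and -0.60. On Cy3 arrays alone this median turned to 0.06. NSDHL, a dehydrogenase of the late steps of cholesterol synthesis, measured 2.14, 0.62, 2.69 and 1.55 on day 49, against 2.86, 2.20, 3.19 and 2.36 on day 28. Every cow was lower on day 49, with overlapping ranges and a difference of -0.90 ± 0.56 (limma adjusted p = 0.752). FDPS, an earlier enzyme of the pathway that makes farnesyl diphosphate, differed by -0.74 ± 0.87. SLC10A1, the bile acid importer of the hepatocyte, measured 4.17, 3.38, 4.78 and 3.20 on day 49, against 4.08, 2.98, 3.81 and 2.16 on day 28. It was higher on day 49 in each cow, by 0.62 ± 0.55 (limma adjusted p = 0.801). No cow was higher on both dye orientations, and the SLC10A1 difference was -0.01 on Cy5 arrays alone and 1.25 on Cy3 arrays alone. APOA1, the main protein of high-density lipoprotein, averaged 0.15 on day 49 and on day 28, with a difference of 0.01 ± 0.58.

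In the growth hormone, insulin and IGF list, 6 of 14 genes had higher and 8 lower estimates on day 49 (median -0.07). IGF1, GHR and IGFBP2 were not analysed here. GCGR, the glucagon receptor, measured 1.85, 1.15, 2.22 and 0.95 on day 49, against 2.79, 2.27, 2.22 and 2.10 on day 28. It was lower by about 1 in 3 cows and level in cow 7186, and the difference was -0.80 ± 0.60 (limma adjusted p = 0.752). IGFBP3, the main carrier of IGF1 in plasma, differed by -0.25 ± 0.47, and its other clones gave 0.29 and -0.51. NOCT, a gene known for its daily rhythm in mouse liver, measured 0.07, -0.01, 0.61 and -0.01 on day 49, against 1.59, 0.06, 0.96 and 0.84 on day 28. It was lower on day 49 in each cow, by little in cow 7079, with a mean difference of -0.70 ± 0.66 (limma adjusted p = 0.801). The hour of sampling is not stated in the sources read.

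Of 13 genes of the urea cycle and amino acid metabolism, 3 had higher and 10 lower estimates on day 49 (median -0.27). The cows' medians were -0.35, -0.55, -0.20 and -0.06. ASS1, the urea cycle enzyme that joins citrulline and aspartate, measured 0.39, -0.26, 0.86 and 0.13 on day 49, against 0.45, 1.23, 1.06 and 0.81 on day 28. Each cow was lower on day 49, and the mean difference was -0.61 ± 0.66 (limma adjusted p = 0.801). BCKDHA, which breaks down branched-chain amino acids, measured -0.17, 0.31, 0.11 and -0.03 on day 49, against 0.47, 0.61, 0.82 and 0.60 on day 28. The days did not overlap, and the difference was -0.57 ± 0.43 (limma adjusted p = 0.752). ASL, the next urea cycle enzyme after ASS1, had a higher estimate of 0.36, which turned to -0.32 on Cy3 arrays alone.

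The list of xenobiotic, glutathione and peroxide metabolism was the most even across cows among those of more than 20 genes, with medians of -0.20, -0.16, -0.22 and -0.21. Of its 26 genes, 8 had higher and 18 lower estimates on day 49 (median -0.15), 4 were lower at an unadjusted p under 0.05 (3.01% of all clones), and 6 were lower in 4 of 4 cows (7.68% of all clones). LOC327709, a glutathione S-transferase of the mu class that RefSeq also lists as GSTM1, measured 2.78, 2.30, 3.46 and 2.25 on day 49, against 2.93, 4.03, 3.75 and 3.48 on day 28. All cows were lower on day 49, by the least in cow 6934, and the difference was -0.85 ± 0.74 (limma adjusted p = 0.801). SULT1A1, a phenol sulfotransferase, measured 0.04, 0.59, 0.99 and -0.03 on day 49, against 0.85, 1.43, 1.27 and 1.17 on day 28, a difference of -0.78 ± 0.51. GSTZ1, an enzyme of tyrosine breakdown, averaged 0.08 ± 0.22 on day 49 and 0.71 ± 0.27 on day 28 (SD, n = 4 cows each), and its days did not overlap. CAT, the peroxide-degrading catalase, averaged 4.47 ± 1.11 on day 49 and 4.49 ± 0.78 on day 28, with a difference of -0.02 ± 0.81.

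The list medians of protein synthesis genes differed between the dye orientations. Of 46 cytosolic ribosomal protein genes, 41 had lower and 5 higher estimates on day 49 (median -0.37), and 12 were lower in 4 of 4 cows. Over all clones 55.6% had lower estimates and 7.68% were lower in 4 of 4 cows. On Cy3 arrays alone their median was -0.75, while on Cy5 arrays alone it was 0.02. How much of this gap is shared by all clones on the same arrays is not given here. The cows' medians were -0.17, -0.88, -0.45 and 0.07, and without cow 7079 the list's median was -0.15. RPL27, of the large subunit, measured -1.25, -1.18, -1.24 and -0.93 on day 49, against -0.86, 0.26, -0.56 and -0.55 on day 28. Its days did not overlap, it was lower on both dye orientations in 4 of 4 cows, which held for 0.621% of all clones, and the difference was -0.72 ± 0.58 (limma adjusted p = 0.774). RPL37A, also of the large subunit, was likewise lower on both orientations in 4 cows, with a difference of -0.56 ± 0.48. RPL5 had the opposite sign, with an estimate of 1.80 ± 1.45 from the 3 cows measured on both days. For translation factors and tRNA synthetases, 30 of 38 were lower (median -0.16), and the median turned to 0.01 on Cy5 arrays alone.

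Proteins bound for secretion are translocated into the endoplasmic reticulum, glycosylated and folded there. Of 47 such genes, 36 had lower estimates on day 49 (median -0.11), and 7 were lower in 4 of 4 cows, against 7.68% of all clones. LMAN2, a lectin that ferries glycoproteins out of the endoplasmic reticulum, measured 1.53, 1.17, 1.66 and 1.19 on day 49, against 2.64, 2.57, 2.10 and 1.75 on day 28. The days did not overlap, both dye orientations were lower in 4 of 4 cows, and the difference was -0.88 ± 0.55 (limma adjusted p = 0.752). RPN2, a subunit of the oligosaccharide transferase, averaged -0.75 ± 0.22 on day 49 and -0.14 ± 0.20 on day 28 (SD, n = 4 cows each), again without overlap. Heat shock proteins, with 16 of 27 lower and a median of -0.04, and proteasome and ubiquitin genes, with 26 of 40 lower and a median of -0.04, lay at the level of all clones.

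The mitochondrial respiratory chain and ATP synthase list had 41 of 52 genes lower on day 49 (median -0.24), of which 13 were lower in 4 of 4 cows, against 7.68% of all clones. Its median was -0.32 on Cy3 arrays alone and -0.01 on Cy5 arrays alone. ATP5F1D, a subunit of the ATP synthase rotor, measured 0.55, 0.26, 0.40 and 0.18 on day 49, against 1.39, 1.37, 0.97 and 0.72 on day 28. All day 49 values lay below all day 28 values, both dye orientations were lower in each cow, and the difference was -0.76 ± 0.46 (limma adjusted p = 0.752). COX5B, a subunit of cytochrome c oxidase, measured 0.26, -0.54, -0.11 and -0.07 on day 49, against 0.47, 1.36, 0.54 and 0.39 on day 28. Cow 7079 had the widest gap, the days did not overlap, and the difference was -0.80 ± 0.74. COX5A, of the same complex, was higher in cow 6934 and lower in the other 3 cows, with -1.01 ± 1.07. Glycolysis and glycogen genes had 9 of 15 lower estimates (median -0.26), and their median turned to 0.18 on Cy5 arrays alone.

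Markers of other liver cells were read as lists. Of 21 macrophage and Kupffer cell markers, 5 had higher and 16 lower estimates on day 49 (median -0.28), and the median ratio of the list was 1.01 on day 49 and 1.18 on day 28. The cows' medians were -0.44, -0.46, 0.19 and -0.15, so these markers had the same signs as the complement list in each cow. The fatty acid oxidation, acute phase, cholesterol, and lymphocyte and neutrophil lists had these signs too, so the match is not particular to complement. The part of the macrophage markers in the complement values was not tested, and C1QA, C1QB and C1QC stand in both the complement and the macrophage list. CD5L stands in both the acute phase and the macrophage list. CTSB, a lysosomal protease, measured 1.27, 0.57, 1.15 and 1.02 on day 49, against 2.16, 2.05, 1.58 and 1.35 on day 28, with no overlap and a difference of -0.78 ± 0.59. The other CTSB clones gave -0.31 and -0.03. SLC40A1, the iron exporter of macrophages, went the other way, with 2.59, 2.07, 3.14 and 1.88 on day 49, against 2.20, 1.28, 2.43 and 0.94 on day 28. It was higher in each cow, by 0.70 ± 0.45 (limma adjusted p = 0.752). On Cy5 arrays alone the difference turned to -0.15, on Cy3 arrays alone it was 1.56, and 1 cow was higher on both orientations. Of 10 endothelial markers 7 were lower (median -0.09), of 10 lymphocyte and neutrophil markers 7 were lower (median -0.12), and of 11 bile duct markers 7 were lower (median -0.07). Of 21 stellate cell and matrix genes, 13 were lower (median -0.13), and the cows' medians spread between -0.73 in cow 7186 and 0.60 in cow 7188. FN1, the fibronectin gene made by both hepatocytes and matrix cells, gave -0.72 ± 0.64 on one clone and -0.73 on another. Cell cycle genes split 10 higher and 7 lower (median 0.01). Erythroid markers were not analysed here.

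Across all genes, 714 of the 5314 clones measured in 4 cows on both days had the same direction in 4 of 4 cows (13.4%), of which 306 were higher on day 49 (5.76%) and 408 lower (7.68%). The 12 higher and 12 lower genes with the smallest unadjusted p among them are described next. They were chosen for these values, so their size and direction are no support for a difference. Of these 24, 5 had the same direction on both dye orientations in 4 of 4 cows, 2 of the 12 higher and 3 of the 12 lower. Over the 5314 clones this held for 0.245% in the higher and 0.621% in the lower direction. The choice on the mean of both orientations favours the count among the 24, which is no support either. In 4 of them, namely DEK, TMEM139, C1S and NEK2, both orientations had the direction in 1 cow. Differences of at least 1 in either direction were found for 90 clones (1.62%), 62 of them higher and 28 lower on day 49.

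Among the higher genes, LZTR1, an adaptor that promotes the breakdown of RAS proteins, measured 0.27, 0.27, 0.58 and 0.46 on day 49, against -0.93, -0.80, -0.49 and -0.11 on day 28. Its days did not overlap, which held for 1.28% of all clones in the higher direction. It was also higher on both dye orientations in each cow, which held for 0.245%, and the difference was 0.97 ± 0.46 (limma adjusted p = 0.752). IQCB1, a protein of the ciliary base, had the same pattern, with -0.20, 0.13, 0.64 and -0.08 on day 49, against -0.90, -0.85, -0.46 and -0.68 on day 28. NUDT16L1, a regulator of DNA repair, had the smallest unadjusted p among them, with a difference of 1.12 ± 0.45, while a second clone of the gene gave -0.34. MYO9B, an unconventional myosin, measured 0.71, 0.83, 0.31 and 1.25 on day 49, against -0.15, -0.60, -0.60 and -0.08 on day 28. These values did not overlap, and the difference was 1.14 ± 0.47.

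DEK, a chromatin protein, had the largest difference of the 12 higher genes at 1.45 ± 0.76. It was followed by TPM2, a tropomyosin of contractile filaments, at 1.32 ± 0.67, and COL4A2, a chain of basement membrane collagen, at 1.30 ± 0.75. A second TPM2 clone gave -0.09. PPM1K, the phosphatase that activates the branched-chain ketoacid dehydrogenase, measured 1.33, 0.93, 2.30 and 1.06 on day 49, against 1.02, -0.35, 1.26 and -0.13 on day 28, and its second clone gave -0.27. PHLDA1, a nuclear protein induced by growth factors, differed by 0.84 ± 0.44 and by 0.25 on its second clone. The remaining higher genes were LOC512541 at 1.24, TCAM1 at 0.97 and TMEM139 at 0.90. TMEM139 turned to -0.22 on Cy5 arrays alone, against 2.02 on Cy3 arrays alone.

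**Figure D4:**
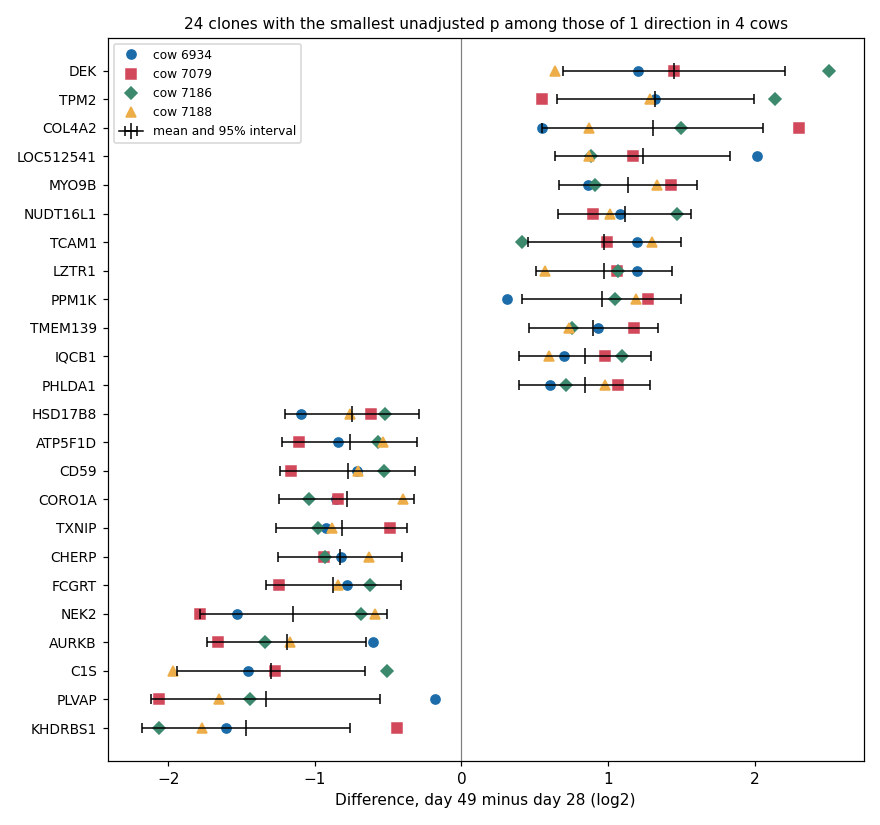
Day difference (day 49 minus day 28, log2) in each of 4 cows (coloured symbols) for the 24 clones with the smallest unadjusted p among those of 1 direction in 4 cows, with the mean and its 95% interval in black. The intervals of these clones exclude 0 by choice, the largest mean is 1.45 for DEK and the lowest is -1.47 for KHDRBS1, and limma's adjusted p was 0.752 for each.

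Among the lower genes, FCGRT, the receptor that rescues IgG and albumin from degradation, was the one with the most clones. The clone with its smallest unadjusted p measured 1.55, 1.60, 1.79 and 0.83 on day 49, against 2.33, 2.85, 2.42 and 1.67 on day 28. Every cow was lower on both dye orientations, with a difference of -0.87 ± 0.46, and the other clones gave -0.60, -0.91 and -0.12. TXNIP, an inhibitor of thioredoxin and of glucose uptake, measured 0.38, -0.06, 0.87 and 0.55 on day 49, against 1.30, 0.43, 1.84 and 1.43 on day 28, and its other clones gave -0.58 and -0.06. HSD17B8, a dehydrogenase of mitochondrial fatty acid synthesis, measured 1.04, 1.14, 1.21 and 0.33 on day 49, against 2.13, 1.76, 1.73 and 1.09 on day 28. It too was lower on both orientations in 4 of 4 cows, with differences of -0.75 ± 0.45 and, on its second clone, -0.39.

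KHDRBS1, an RNA-binding protein of splicing, had the lowest difference at -1.47 ± 0.71, but its second clone gave 0.75. CHERP, another splicing protein, differed by -0.83 ± 0.42, and its other clones gave 0.13 and 0.65. PLVAP, a diaphragm protein of endothelial pores, measured -0.15, 0.04, -1.24 and -0.50 on day 49, against 0.03, 2.10, 0.20 and 1.16 on day 28. Its difference of -1.33 ± 0.78 was larger than that of any other endothelial marker tested. CORO1A, an actin regulator of white blood cells, averaged -0.45 ± 0.30 on day 49 and 0.34 ± 0.16 on day 28 (SD, n = 4 cows each), without overlap. It was lower on both dye orientations in 2 of 4 cows. The mitotic kinases AURKB, at -1.19 ± 0.54, and NEK2, at -1.15 ± 0.64, were both lower. The cell cycle list as a whole, with its median of 0.01, was not.

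Clones of the same gene give a second look at reproducibility. For 907 genes with at least 2 tested clones, the mean log2 ratios of the clones correlated at 0.53 across genes, while their day differences correlated at 0.08 and had the same sign for 53.6% of genes. Of the 24 genes above, 10 had other clones, 14 in number, of which 7 had the same sign as the clone chosen. For PHLDA1, FCGRT, TXNIP and HSD17B8 all other clones shared the sign.

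Set in the course of the series, day 49 had the most extreme mean of the 7 days for 18 of the 24 genes above, and day 28 had the most extreme mean on the opposite side for 16 of them. The choice of these genes on day 49 against day 28 favours both counts. C1S averaged between 1.91 and 2.75 on the 5 earlier days, 2.73 ± 0.58 on day 28 and 1.20 ± 0.86 on day 49 (SD over 5 cows on day 28 and 4 on day 49). FCGRT averaged between 1.95 and 2.40 before, 2.20 ± 0.49 on day 28 and 1.44 ± 0.42 on day 49. For TXNIP, which averaged 0.33 to 0.97 on the earlier days, 1.18 on day 28 and 0.43 on day 49, and for CHERP, with -0.67 to 0.16, 0.20 and -0.48, day 28 was the high day and day 49 was not the lowest. LOC327709 and NSDHL had another course, in which the lowest mean fell on day 1, at 2.27 and 1.36. These means are descriptions over 3 to 5 cows a day, and the other days were tested in no comparison here.

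**Figure D5:**
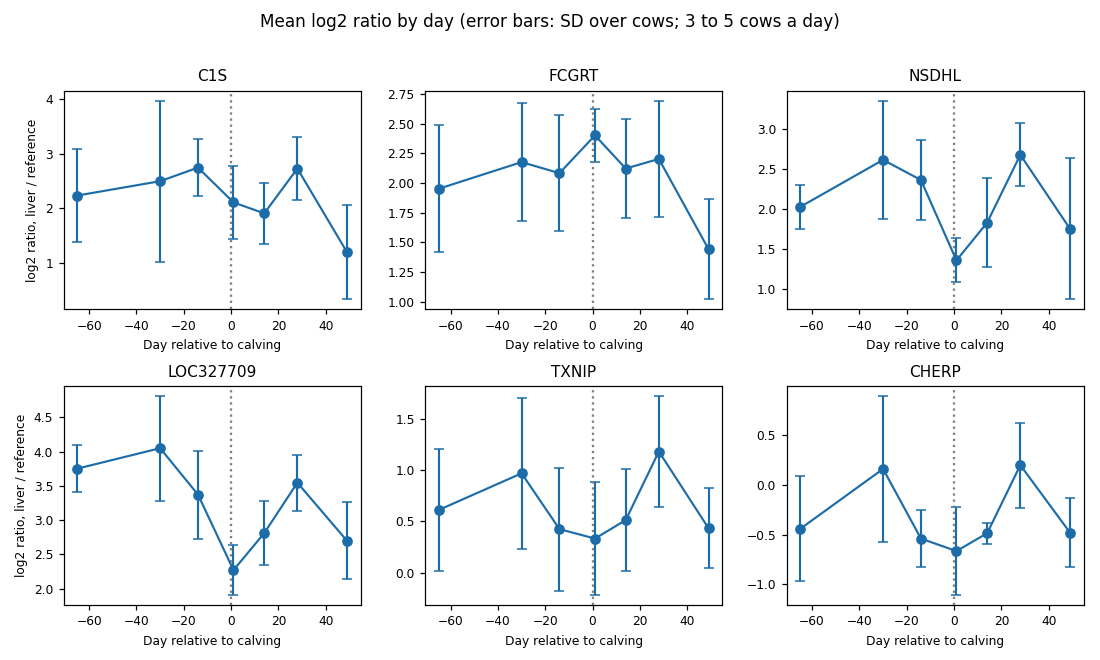
Mean log2 ratio of liver over reference for 6 genes on each of 7 days relative to calving (horizontal axis; the dotted line marks calving), with error bars of 1 SD over 3 to 5 cows. C1S and FCGRT have their lowest mean on day 49, NSDHL, LOC327709, TXNIP and CHERP have theirs on day 1, and TXNIP and CHERP have their highest on day 28. The genes shown were chosen after their values were seen.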

How the data were processed

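The values were log2 ratios of the dye channels, deposited by the authors as 2 tables. Images came from a Scanarray 4000 scanner and were quantified with GenePix 4.0, per the labels. Background correction: not given in the sources used here, as is any normalization. The base was checked on large values: 67.6% matched, to 3 decimals, log2 of a quotient of whole numbers no larger than 100, against 5.11% for the natural log. Only the larger table was used. Each array was centred on its median, arrays with liver in Cy3 were turned, and spots of a clone and both arrays of a cow-day were averaged. Of 5693 clones, 95 listed several genes and were not named. Symbols were updated through gene identifiers for 5591 clones. Rows without a clone, 5030 in number, were left out. Clones measured on both days in at least 3 cows were tested, 5544 in all. The fit used limma 3.58.1 in R 4.3.3 with terms for cow and day and Benjamini-Hochberg adjustment over all tested clones, with 2-sided tests. It was tested on simulated data. The cows pair the days because the same animals were sampled. Deviations from the day means correlated at 0.18, 0.07, 0.14 and 0.005 between the days of cows 6934, 7079, 7186 and 7188. Between days of different cows they correlated at -0.236 to 0.225, a range that holds the same-cow values. Members and gene lists were chosen with earlier results of these data known. Genes named were, by rule, the 12 higher and 12 lower clones of smallest unadjusted p with 1 direction in 4 cows, up to 4 genes of smallest unadjusted p in each of 25 lists, and a set of metabolic and secretory genes named in any case. Further list members were named after their values were seen. In the lists, and among the genes named in any case, a gene on several clones was represented by its most completely measured clone. The 12 higher and 12 lower were instead chosen clone by clone on their p. For these genes the clone shown was not fixed before its values were seen. Ratios carry no intensities, so signal over background is unknown. Precision is limited by the number of arrays.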

Additional observations from a re-analysis of the deposited data

Results flagged for a closer look

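In 9 of 127 sets of 4 cows (7.09%), formed by each named gene on each day, 1 cow lay far from the other 3. Chance flags about 1 in 20 such sets where they are independent. These sets share the same 4 cows and hold genes partly chosen on their values, so that rate is no direct measure for them. Whether any cow was unusual was not tested. On day 49, cow 7186 lay apart with AURKB at -1.64, where the other cows had -0.14 to 0.08, with NOCT at 0.612, where the others had -0.01 to 0.07, and with SERPING1 at 0.945, where the others had 0.171 to 0.302. On the same day COL4A2 stood at -0.123 in cow 7188, where the others had 0.708 to 0.76.

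On day 28, cow 7188 lay apart with ACADVL at 1.33, where the others had 2.24 to 2.32, with TF at 3.44, where the others had 4.21 to 4.34, and with ACSL1 at 0.86, where the others had 1.69 to 1.85. DEK stood at -1.05 in cow 7186, where the others had -0.21 to -0.14. COX5B stood at 1.36 in cow 7079, where the others had 0.392 to 0.536.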

How the results depend on the processing

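The number of clones past the adjusted threshold was 0 in the paired fit, with no replicate block and with each cow left out (0 to 0), and in every other setting tried except 1. Leaving out cows 6934 and 7188, whose exchanged arrays correlated above 0 on day 49, gave 73 clones (61 higher, 12 lower on day 49), of which 70 had the same sign and 26 an unadjusted p under 0.05 in the 4-cow fit. That fit rests on 2 cows and 1 residual degree of freedom, and it gave every clone the same variance. Both of its cows are also in the 4-cow fit, so the shared signs were favoured in advance and are no support. At an unadjusted p under 0.05 the count was 322 in the paired fit and 336 with no replicate block. It was 485 on arrays with liver in Cy3 alone, 584 with array weights, 536 without those 2 cows, and 915 when 14734 rows were tested one by one. Leaving out 1 cow gave 195 to 744. Rescaling each cow-day on the mean profile, chosen after the slopes were seen, gave 399. Rows without a clone gave 345 of 4266 at an unadjusted p under 0.05 (8.09%) and 0 after adjustment. The sign of a named gene's estimate differed for 13 of 116 genes on Cy5 arrays alone and 11 of 116 on Cy3 arrays alone, and that of a list's median for 8 and 3 of 23 lists. The 4-cow estimate is the mean of both orientations, and genes chosen for a small p on it tend to share its sign. These gene counts are therefore no measure of agreement between the dyes, which correlated at -0.04 over all 5544 clones. The cause of these shifts was not tested.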
